A study of Homo sapiens with 7 samples.

Results

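The genes described here are 10 genes of the unfolded protein response, HSPA5, HSP90B1, PDIA4, CALR, XBP1, ATF4, ATF6, DDIT3, ERN1 and DNAJB9. They were chosen by symbol, as the rows of the RNA-Seq table that hold a listed name, and all 10 were found, in 10 of 30032 loci. The cells were HepG2, a human liver cancer cell line that grows in culture, and the labels name no treatment, so no stress was applied as far as they say. Of 7 samples, 5 were ChIP-Seq of crosslinked chromatin with antibodies to H3K4me3, H3K9ac, H3K27ac, H3K27me3 and H3K9me3, 1 was native MNase-Seq, which maps nucleosomes without crosslinking, and 1 was RNA-Seq. Each assay had 1 sample, so there were no groups to compare and no replicate error, and no test was run. RNA levels were in FPKM, fragment numbers scaled by transcript length and by the size of the library, so that levels of different genes can be set side by side.

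The unfolded protein response is set off when misfolded proteins build up in the endoplasmic reticulum (ER), where secreted and membrane proteins are folded. Sensors in the ER membrane, IRE1 (encoded by ERN1), ATF6 and PERK, pass the signal to the transcription factors XBP1, ATF6 and ATF4, which raise ER chaperones and, through DDIT3, genes tied to cell death. Hepatocytes secrete most plasma proteins, and their ER carries a large folding load. H3K4me3, H3K9ac and H3K27ac are found at active promoters, H3K27ac without H3K4me3 also at enhancers, and H3K27me3 and H3K9me3 at repressed chromatin. A nucleosome with exactly H3K4me3, H3K9ac and H3K27ac is called trivalent below.

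The liver identity of the cells was seen in the RNA. All 9 hepatocyte and liver cancer markers had an FPKM of 1 or more, and the highest was ALB, which encodes albumin, at 10010. Markers of other cells were low except LYZ, which encodes lysozyme, at 1173, though some of them also reached 1. The blood markers PTPRC and CD3E were listed at 0, and 0 of 3 endothelial markers reached 1. Of 3 fibroblast markers 2 did, the highest at 2.005. Of 2 neuron markers 1 did, SNAP25 at 4.641, summed over 3 rows. The pair of FPKM columns given for the sample held 2.149 and 7.132 for SNAP25.

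Promoter sequence is shown first because the ER stress element, a site through which ATF6 and XBP1 are known to act, was found in some of these genes and is rare among promoters. The element was searched as CCAAT, then any 9 bases, then CCACG, on both strands, in windows of 250 bases before and 50 after each start in a RefSeq promoter table (GRCh38.p14). It was found in 27 of 35116 windows (0.0769%) and in 4 of 14 windows of the 10 genes, those of HSPA5, HSP90B1, CALR and XBP1. Only exact matches were counted, so forms that differ in CCAAT or CCACG were missed, in these and in the other windows. The 10 genes were chosen as genes of this response, and the element is a known site of its factors. Its presence in them is therefore not an independent finding, and its share was not tested. The 250 bases before the start of these 4 genes are given 5′ to 3′ on the gene's strand, with the CCAAT and CCACG of each element in capitals, which read CGTGG and ATTGG where the element lies on the other strand.
HSPA5, chr9:125241344-125241593, minus strand: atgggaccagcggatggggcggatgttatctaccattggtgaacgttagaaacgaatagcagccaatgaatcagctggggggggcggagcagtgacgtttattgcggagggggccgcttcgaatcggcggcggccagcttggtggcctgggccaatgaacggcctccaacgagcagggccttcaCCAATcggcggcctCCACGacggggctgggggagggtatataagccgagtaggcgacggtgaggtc
HSP90B1, chr12:103930160-103930409, plus strand: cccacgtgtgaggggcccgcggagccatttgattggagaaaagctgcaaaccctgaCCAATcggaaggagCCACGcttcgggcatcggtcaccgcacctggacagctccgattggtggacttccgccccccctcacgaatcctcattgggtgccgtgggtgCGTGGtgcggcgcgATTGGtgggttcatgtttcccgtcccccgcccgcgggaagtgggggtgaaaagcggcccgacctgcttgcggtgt
CALR, chr19:12938359-12938608, plus strand: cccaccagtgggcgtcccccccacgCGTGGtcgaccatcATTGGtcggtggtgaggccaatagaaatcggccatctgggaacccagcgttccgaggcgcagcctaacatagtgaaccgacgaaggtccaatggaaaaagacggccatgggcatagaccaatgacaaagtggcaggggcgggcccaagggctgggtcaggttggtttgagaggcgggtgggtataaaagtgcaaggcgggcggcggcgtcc
XBP1, chr22:28800570-28800819, minus strand: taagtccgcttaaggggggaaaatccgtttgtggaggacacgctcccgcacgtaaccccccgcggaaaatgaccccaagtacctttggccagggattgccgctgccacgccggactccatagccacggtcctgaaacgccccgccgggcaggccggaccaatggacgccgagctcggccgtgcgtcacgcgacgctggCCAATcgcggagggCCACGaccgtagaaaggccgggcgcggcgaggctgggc

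HSPA5 held its element from -66 to -48, on the gene's own strand, and XBP1 from -52 to -34. HSP90B1 had a pair, from -194 to -176 on its own strand and from -89 to -71 on the other strand. CALR had its element from -225 to -207 on the other strand, and the letters TATAAA from -30. CCACG, within an element or not, was found in 10 of the 14 windows (7 of the 10 genes), beside 38.1% of all windows. CCAAT was found in 10 of the 14 (8 of the 10 genes), beside 34.6%. Both counts include the genes with the full element. TATAAA was found in 3 of the 14 windows, those of CALR and ATF4, beside 11.5% of all windows. A shorter form of the element (ATTGG, any 1 base, CCACG), the letters TGACGTGG and TGACGTGA of the unfolded protein response element and the letters TGATGCAA of the joint ATF4 and C/EBP site were in none of the genes' windows, beside 0.0541%, 0.729%, 0.450% and 0.866% of all windows. Among 21 other genes with the element in a window, 16 were found in 1 row of the RNA-Seq table, not all with coordinates of their own. Of these, 11 had an FPKM of 1 or more, beside 47.6% of 13289 named genes with coordinates of their own. The 11 were PDIA6 at 309.3, CANX at 238.4, SERP1 at 77.2, TMEM120A at 47.1, EIF2A at 35.3, ZNF17 at 17.6, CRELD2 at 15.6, ALG12 at 7.834, TRIM5 at 7.133, FICD at 1.55 and ERO1B at 1.08. ERO1B appears in the RNA-Seq data under its other name, ERO1LB. The remaining 5 were SYNPO at 0.35, GLRA2 at 0.0550, FRG2C at 0.0106, and FRG2B and NLRP4, both listed at 0.

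RNA of all 10 genes was detected in HepG2, at levels that spanned 227-fold. All 10 had an FPKM of 1 or more, beside 47.6% of 13289 named genes with coordinates of their own. The median over the 10 genes was 168.8, and that over all these genes was 0.583, or 12.1 over those at 1 or more. Of the 10 genes, 6 were above an FPKM of 100, at percentiles from 98.1 to 99.5 of all genes, and the median percentile of the 10 was 98.4.

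Of the chaperones and folding enzymes, CALR, HSP90B1, HSPA5 and PDIA4 were abundant and DNAJB9 was not. CALR, which encodes the calcium-binding lectin chaperone calreticulin, was at 441.9 in the first of the pair of FPKM columns given for the RNA-Seq sample (run 1) and at 447.2 in the second (run 2), the highest of the 10 and rank 69 of 13289. HSP90B1, the Hsp90 of the ER lumen (GRP94), was at 391.4 and 401.8. HSPA5, the Hsp70 chaperone BiP, which also holds the sensors inactive, was at 238.6 and 241.1. These 3 chaperone genes held an ER stress element. PDIA4, a disulfide isomerase, was at 146.6 and 145.1. DNAJB9, an Hsp40 partner of BiP also known as ERdj4, was at 15.82 and 16.26, rank 2575.

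Of the transcription factors, ATF4 and XBP1 were within the range of the 4 abundant chaperones and folding enzymes, and DDIT3 was lower. ATF4, whose protein is made mainly when translation is otherwise held down by stress, was at 325.9 and 323.3, rank 94. XBP1, whose mRNA is spliced by IRE1 into the active form, was at 192.7 and 190.9, and an FPKM per gene does not separate spliced from unspliced mRNA. DDIT3, which encodes CHOP, was at 24.33 and 20.99, rank 1940. DDIT3 shared its listed coordinates with MARS, which was at 67.4 and 63.97. How reads were divided between such loci is not given in the sources used here.

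Of the sensors, ATF6 was at a level close to that of DNAJB9, above the median of the genes that reached an FPKM of 1 (12.1), and ERN1 was the lowest of the 10 genes. ATF6, which is cut by proteases in the Golgi to release a transcription factor, was at 18.98 and 16.94, rank 2345. ERN1, the kinase and ribonuclease IRE1, was at 2.042 and 1.882, rank 5845, at the 56.0th percentile of all genes.

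In falling order the genes were CALR, HSP90B1, ATF4, HSPA5, XBP1, PDIA4, DDIT3, ATF6, DNAJB9 and ERN1. The largest steps between neighbours were 6.44-fold from PDIA4 to DDIT3 and 8.18-fold from DNAJB9 to ERN1, and the other steps were from 1.12-fold to 1.35-fold. The columns of neighbouring genes did not overlap in any pair. The columns of a gene differed by at most 1.16-fold, for DDIT3, more than the steps from CALR to HSP90B1 (1.121-fold) and from ATF6 to DNAJB9 (1.12-fold), so that the order in these 2 pairs is within the largest difference seen between columns. None of the 10 genes had columns over 1.2-fold apart, beside 6.18% of the genes that reached an FPKM of 1, a limit chosen after the values were seen. Run 2 was higher in 4 genes and run 1 in 6. The columns do not agree everywhere. SNORA76 and SNORD104, small nucleolar RNA genes listed as 1 locus that starts 7263 bp from ERN1 on the other strand, were at 2.375 in run 1 and 3212 in run 2. The columns are taken as repeat measures of 1 sample, and run 1 and run 2 are names given here. The labels do not say whether the columns come from 1 culture or from separate ones. Their difference is therefore not read as one between cultures.

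**Figure D1:**
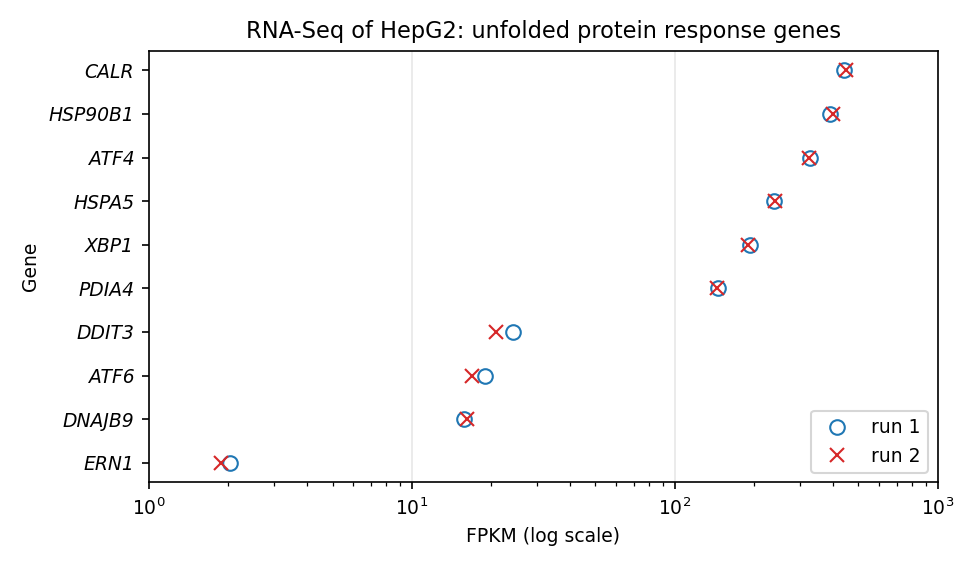
FPKM of each gene (x axis, log scale) in run 1 (circles) and run 2 (crosses) of the RNA-Seq sample, with genes from the highest mean at the top. Of the 10 genes, 6 lie between 145.1 and 447.2, DDIT3, ATF6 and DNAJB9 between 15.82 and 24.33, and ERN1 at 2.042 and 1.882.

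Histone marks were read as called or not called at each listed nucleosome position, 140 bp long. Over the 10 loci with 10 kb on either side, 127 of 3125 positions carried a mark (4.06%, 95% exact interval 3.40 to 4.82), beside 1.43% of 14217405 positions in the genome. The marked positions gathered at the gene starts. Within 2 kb of the start, 84 of 182 positions were marked (46.2%, 38.8 to 53.7), and in the rest of the windows 43 of 2943 were (1.46%, 1.06 to 1.96), near the level of the genome. Intervals are exact Clopper-Pearson intervals and cover counting error only, and positions within a locus are not independent. The lists carry no peak height, so the depth behind each call is unknown. The lists used here hold fewer marked positions than the study describes, and a mark that was not called is one that is not in these lists.

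H3K4me3 was called at 68 of the 182 positions near the starts (37.4%), H3K9ac at 65 (35.7%) and H3K27ac at 55 (30.2%), against 0.603%, 0.539% and 0.674% of all positions in the genome. Such marks are common near the starts of expressed genes. All genes that reached an FPKM of 1 had medians of 5, 4 and 3 such positions within 2 kb, of a median of 19 listed. Those at 100 or more had medians of 6, 5 and 4. The marks were mostly found together. Of the 84 marked positions, 41 were trivalent (48.8%, 37.7 to 60.0), 13 carried H3K4me3 with H3K9ac, 12 carried H3K4me3 alone, 7 carried H3K27ac alone, 6 carried H3K9ac with H3K27ac and 3 carried H3K9ac alone. Over the genome, 21.0% of marked positions were trivalent, a share that covers all regions and not gene starts alone. The remaining 2 carried H3K9me3 beside activation marks, 1 in ATF6 with all 3 of them, 421 bp past the start, and 1 in XBP1 with H3K4me3 and H3K9ac, 898 bp past the start.

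Trivalent positions lay mostly past the gene start, 29 downstream against 12 upstream. Per gene these were means of 2.9 and 1.2, beside 2.296 and 0.7067 over all genes that reached an FPKM of 1. Of those upstream, 4 in HSP90B1, 3 in DNAJB9 and 1 in DDIT3 also lay within 2 kb of another named start. The upstream ones of HSPA5 (2), PDIA4 (1) and ATF6 (1) did not. On both sides together, HSP90B1 had 8, DDIT3 and DNAJB9 had 6 each, ATF4 had 5, HSPA5 and XBP1 had 4 each, PDIA4 and ERN1 had 3 each, ATF6 had 2 and CALR had 0. Thus 8 of the 10 genes had 3 or more trivalent positions within 2 kb, beside 27.8% of all genes and 56.4% of those that reached an FPKM of 1. Of the 6 genes above an FPKM of 100, 5 had 3 or more, beside 71.5% of all 386 genes at that level. Of the other 4 genes, 3 did.

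The number of trivalent positions did not follow the order of expression among the 10 genes. ERN1, at a mean FPKM of 1.962, had as many as PDIA4 at 145.9, and DNAJB9, at 16.04, had more than HSPA5 at 239.8. CALR, with the highest FPKM, had 0, where the median FPKM of all 7592 genes with 0 was 0.0153. Of these 7592, 5419 were under an FPKM of 0.1. Of the 386 genes at 100 or more, 36 (9.326%) had 0, CALR among them.

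**Figure D2:**
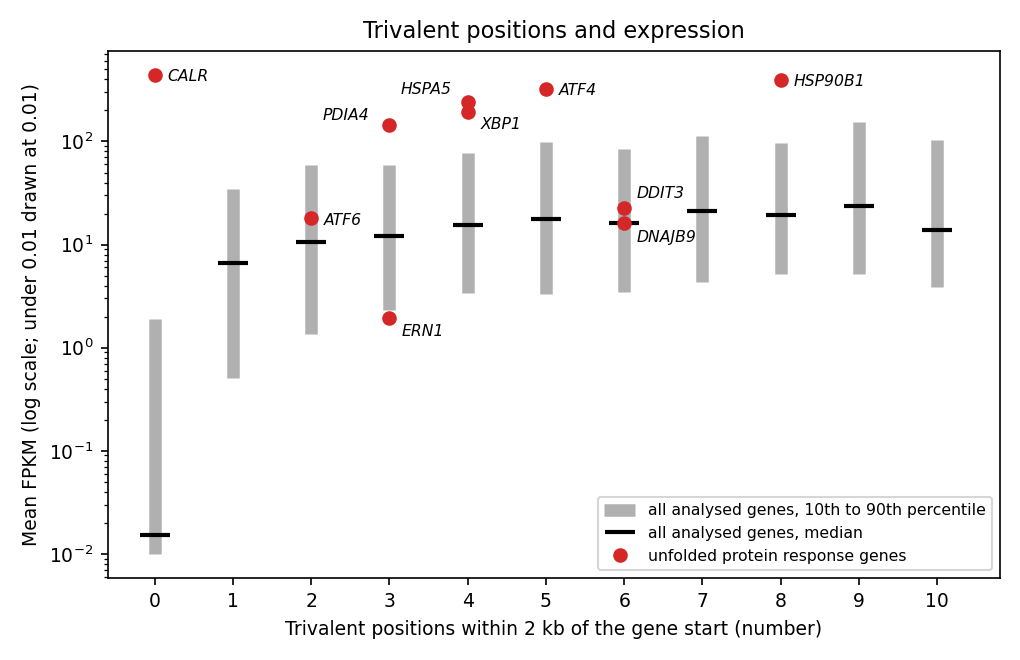
Mean FPKM (y axis, log scale, values under 0.01 drawn at 0.01) by the number of trivalent positions within 2 kb of the gene start (x axis), with the 10 genes as red points and the 10th to 90th percentile (grey bar) and median (black line) of all analysed genes, for numbers with at least 20 genes. CALR stands at 0 trivalent positions with a mean FPKM of 444.5, far above the bar of the other genes with 0, and ERN1 lies just below the bar at 3.

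**Figure D3:**
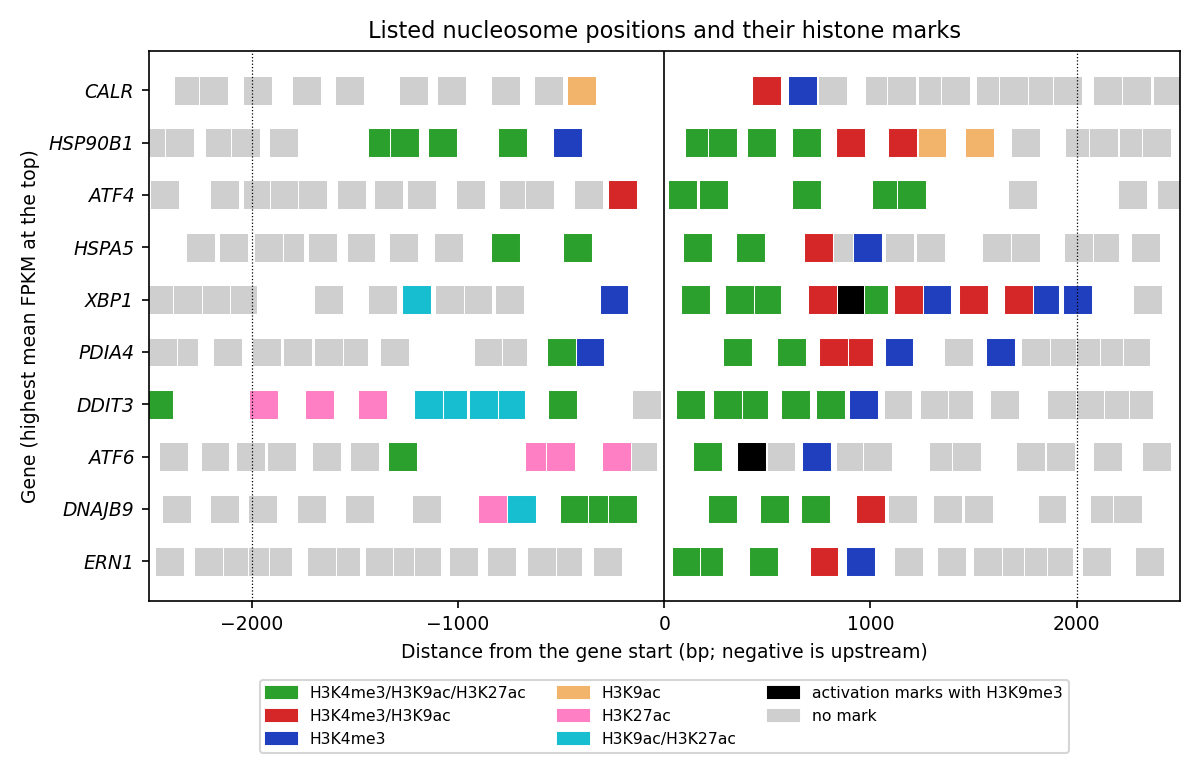
Nucleosome positions of 140 bp (blocks) by distance from the gene start in bp (x axis), upstream to the left, with 1 line per gene from the highest mean FPKM at the top, coloured by the marks called; dotted lines stand at 2 kb. No block covers the start of any of the 10 genes, and CALR has the widest empty stretch, 755 bp. The block after the start is trivalent in 9 genes, a count whose share over all genes was not determined.

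None of the 10 gene starts lay inside a listed position, beside 45.4% of all gene starts and 30.55% of those that reached an FPKM of 1. The stretch without a listed position around the start was 755 bp in CALR, from -330 to 424. It was 580 bp in PDIA4, 497 bp in HSP90B1, 440 bp in HSPA5, 345 bp in DNAJB9, 257 bp in XBP1, 239 bp in ERN1, 178 bp in ATF6, 150 bp in ATF4 and 73 bp in DDIT3, beside a median of 213 bp over the genes that reached an FPKM of 1, with covered starts counted as 0. The 5 longest were those of the 5 chaperones and folding enzymes, an order noticed after the values were seen. For CALR, a stretch at least as long was found in 11 of the 386 genes at 100 or more (2.85%). No mark can be called in such a stretch, since marks were called at listed positions. The first position after the start was trivalent in 9 of the 10 genes, and that of CALR carried H3K4me3 and H3K9ac. The share of all genes with a trivalent first position was not determined, so this count is a description only.

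CALR (hg19, chr19:13049407-13055455, plus strand) stood apart from the other genes in its marks. Of 19 positions within 2 kb of its start, 3 were marked, with H3K9ac at -400.5 bp, H3K4me3 and H3K9ac at 494.5 bp and H3K4me3 at 669.5 bp from the start to the midpoint. H3K27ac was called at 0 of the 19. Of the 386 genes at an FPKM of 100 or more, 26 (6.736%) had no H3K27ac within 2 kb, and CALR was the 6th of these by FPKM. Of the other marked positions of its window, 3 lay at the start of FARSA, 4849 bp away (FPKM 35.99 and 36.87).

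HSP90B1 (chr12:104324188-104341703, plus strand) had the most trivalent positions within 2 kb, 4 on either side of its start. Within 1 kb it had 5, fewer than the 6 each of DDIT3 and DNAJB9, and within 5 kb it had 8, as many as DDIT3. Of 15 positions within 2 kb, 13 were marked, 11 with H3K4me3, 12 with H3K9ac and 8 with H3K27ac. All 13 also lay within 2 kb of the start of GNN, a gene on the other strand that begins 199 bp away and was at an FPKM of 0.1716 and 0.08279. A further 6 marked positions, 5 of them trivalent, lay outside the locus and over 2 kb from any listed start. C12orf73 and GLT8D2 share 1 listed locus there, so their own starts are not known from the table.

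HSPA5 (chr9:127997126-128003666, minus strand) had 6 marked positions of 17, all within -770 to 984 bp, with 2 trivalent positions on either side of the start. PDIA4 (chr7:148700153-148725782, minus strand) had 8 marked positions of 18, all of those in its whole window of 240 positions, with 1 trivalent position upstream and 2 downstream. Thus both of these genes were marked around the start and, but for 1 position of HSPA5 with H3K9me3 alone outside the locus, nowhere else within 10 kb of the locus.

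DNAJB9 (chr7:108210188-108215294, plus strand) shared its start region with THAP5. The listed starts were 7 bp apart on opposite strands, and THAP5 was at an FPKM of 6.801 and 7.393. All 9 marked positions of DNAJB9, 3 trivalent upstream and 3 downstream among them, lay within 2 kb of both starts and cannot be assigned to either gene.

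XBP1 (chr22:29190547-29196560, minus strand) was marked at 13 of 18 positions, with H3K4me3 at 12, H3K9ac at 10 and H3K27ac at 5. All 4 of its trivalent positions lay downstream. ATF4 (chr22:39915742-39918729, plus strand) likewise had all 5 of its trivalent positions downstream, and 6 of 17 positions were marked. DDIT3 (listed with MARS as chr12:57881670-57914300, minus strand) was marked at 14 of 20 positions, with H3K27ac at 13. Upstream of its start were 4 positions with H3K9ac and H3K27ac and 3 with H3K27ac alone, followed by the start of MBD6, 2104 bp away on the other strand (7.931 and 7.86). Of the 14 positions, 8 also lay within 2 kb of another named start.

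Of the sensors, ATF6 (chr1:161736000-161937983, plus strand) was marked at 7 of 18 positions near its start, with 1 trivalent position on either side. ERN1 (chr17:62116507-62207558, minus strand) was marked at 5 of 23, with 3 trivalent positions, all downstream. ERN1 also had 11 marked positions far inside its locus, in a stretch of 4085 bp (chr17:62157652-62161736) with 21 listed positions, 45892 to 49836 bp from its start. All 11 carried H3K27ac, 9 alone and 2 with H3K9ac, and 0 carried H3K4me3. At least as many positions with H3K27ac and without H3K4me3 in 5 kb, over 10 kb from any named start, were found in 119 of 7113 genes with loci of 20 kb or more (1.67%). Of the 3 such genes with coordinates of their own among the 10, only ERN1 had it, and ATF6 and PDIA4 had 0 such positions. DDIT3, whose listed locus is also over 20 kb but is shared with MARS, was not counted. This measure was set up after the stretch had been seen. Exons and introns were not analysed here.

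**Figure D4:**
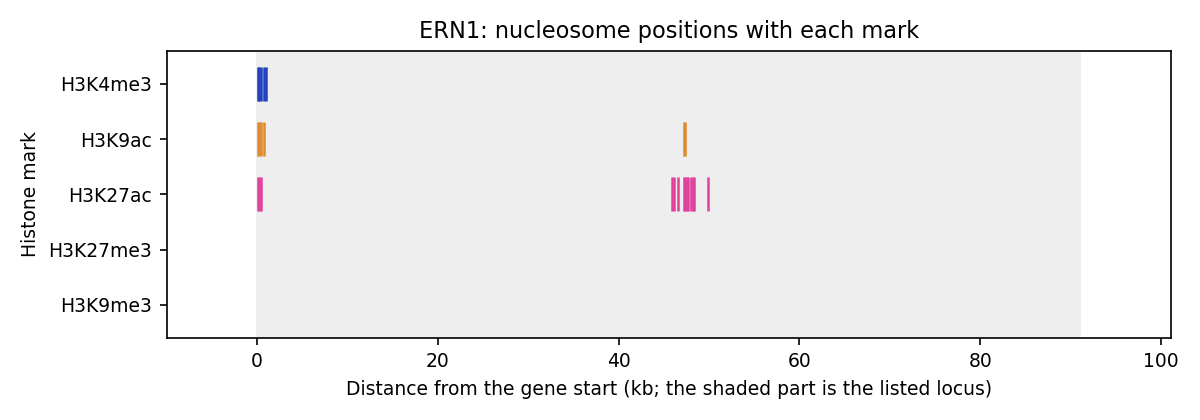
Marked nucleosome positions of ERN1 (ticks) for each histone mark (y axis) by distance from the gene start in kb (x axis), with the listed locus shaded. H3K4me3 is found at the start alone, while H3K27ac is found at the start and again in a stretch of 11 positions 45892 to 49836 bp into the locus; H3K27me3 and H3K9me3 have no tick.

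Of the repressive marks, H3K27me3 was not called in any of the 10 genes and H3K9me3 was called in 3. H3K27me3 was called at 0 positions over the 10 loci with 10 kb on either side, where 30.6% of all genes, 16.93% of those that reached an FPKM of 1 and 10.36% of those at 100 or more had at least 1. Near the starts, 0 of 182 positions allow a share of up to 2.01% (exact 95% upper bound), a bound above the share of 0.185% in the genome. H3K9me3 was called in ATF6, HSPA5 and XBP1, 3 of the 10 genes, beside 28.8% of all genes and 26.27% of those at 1 or more, a share near the background. Near the starts it was called at 2 of 182 positions (1.10%, 0.133 to 3.91), an interval that includes the share of 0.243% in the genome. Of its 5 positions, 2 were those with activation marks given above and 3 carried it alone, 2 in ATF6 and 1 beside HSPA5.

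Away from their own starts, the 10 genes had 43 marked positions. Of these, 18 lay at the starts of neighbouring genes, 16 inside the loci (11 in ERN1, 4 in ATF6 and 1 in XBP1) and 9 outside the loci with no listed start within 2 kb.

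For each gene, the gene whose marks were most alike was found by the Euclidean distance over counts of H3K4me3, H3K9ac and H3K27ac positions in 8 bins of 500 bp around the start, 24 values in all, with ties settled by the closest FPKM. ATF4 had the same counts in all 24 values as CASD1 (19.08 and 21.38), and ERN1 the same as DOHH (10.61 and 11.25). Several of the others were 1 of a group of genes at the same distance. For HSPA5 it was MRPL41 at a distance of 1 (1 of 5 such genes), for CALR COTL1 at 1 (1 of 11), for PDIA4 DLST at 1.41 (1 of 3), for ATF6 DCTPP1 at 2.45 (1 of 3) and for DDIT3 C9orf167 at 3.46 (1 of 2). A single gene was nearest for DNAJB9 (ADRBK2 at 2), XBP1 (CREB3L2 at 2.45) and HSP90B1 (HSP90AB1 at 3.32). The FPKM of the paired genes differed widely, as for CALR at 444.5 and COTL1 at 17.01.

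The other 36 genes of the pathway, listed by role, are given for comparison with the 10 genes. Of the 36, 33 had an FPKM of 1 or more, 28 had 10 or more and 8 had 100 or more, with a median of 24.9. Chaperones and folding enzymes (13 genes) had the highest median, 70.3, ahead of proteases and adaptors (3 genes, 28.3), the degradation of misfolded proteins (8 genes, 26.2), targets of the PERK arm (8 genes, 8.90) and sensors (4 genes, 7.66). The highest 3 were P4HB, a disulfide isomerase, at 460.5, PPIB, a prolyl isomerase, at 342.2, and PDIA6 at 309.3. The lowest 3 were DERL3 at 0.0749, CHAC1 at 0.186 and ERN2, the paralog of ERN1, at 0.734.

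Among 21 of these genes with coordinates of their own, 12 had 3 or more trivalent positions, 3 had 0, the median was 3 and the highest was 6, in HERPUD1. Over the 10 genes the median was 4 and the highest 8. H3K27me3 was called over the windows of 2 of the 21, ASNS, which encodes asparagine synthetase (115.2, with 0 trivalent positions), and DNAJB11, a BiP partner (71.06). H3K9me3 was called over those of 3, ERO1L (45.11), MBTPS1, a protease that cuts ATF6 (33.41), and DNAJC3 (20.63). Either mark was also called at the shared loci of PDIA6, PDIA3 (156.0), EIF2S1 (28.34), SYVN1 (12.05), VLDLR (4.685), ERO1LB (1.08) and ERN2.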

How the data were processed

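The data were from HepG2 cells, with 1 sample for each of 7 assays. The nucleosome positions and histone peaks are coordinates with an identifier and no height. The authors called positions by DANPOS at its default settings, and peaks at these positions by NUCLIZE, dropping oblique and U-shaped peaks and weakly enriched ones. The authors deposited RNA levels as FPKM in a pair of columns, with columns of their own comparison between these, which were not used. The submitters' processing notes name hg19, BWA, Bowtie, TopHat2 (2.1.0), HOMER (4.7) and edgeR, without roles. The counter and annotation of the FPKM are not given in the sources used here. Reads per value are unknown. Among 977 loci with both values above 0 and under 0.05, the most common ratio of run 2 to run 1 was 1.14 to 1.16.

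The genes and gene lists were chosen with earlier results of these data known. The named genes were the 10 chosen, the 3 highest and 3 lowest of the other pathway genes, those with a repressive mark, the gene most alike in marks, and neighbours within 10 kb. The search for CCAAT, the other genes with the element and the promoters shown, the FPKM classes and the limit of 1.2-fold were chosen after seeing the data. The mean of both columns was used. Each peak was given to the position it overlapped most. Strand was inferred from the order of locus numbers, in which each of 24 chromosomes showed 3 rising blocks, and the gene start was the 5′ end of the listed locus. Windows were read by position midpoint. Background genes were 13289 named genes with coordinates of their own, of 22065 named loci, and DDIT3 is not among them. Promoter windows came from RefSeq on GRCh38.p14 and could not be placed on the hg19 positions. All 10 genes matched the promoter table. Tables were handled with pandas 2.3.3 and numpy 2.4.6 in Python 3.11.15, intervals came from scipy 1.17.1 and figures from matplotlib 3.10.9, and the matching of peaks was tested on simulated data. A neighbouring gene and the value of a marker gene are not reported here.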

Additional observations from a re-analysis of the deposited data

How the results depend on the processing

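No paired analysis was possible because each assay had 1 sample and no result came from a test. The median percentile of the 10 genes, 98.43, was 98.17 among all named loci and 97.32 among genes at an FPKM of 0.1 or more. The 127 marked positions fell to 76 with no flank, by construction, since fewer positions are then counted. With the remaining alternatives, 17 values for the summary results stayed within 1.5 times the main count, within their interval or within the spread of the columns. All 10 genes were at 0.1 or more, by construction since all reached 1, and 9 were at 5 or more. The 8 genes with 3 or more trivalent positions stayed 8 within 1 kb and 5 kb, and 6 had 4 or more. Of values for single genes, 98 stayed and 12 moved. Those that stayed include each gene's FPKM from 1 column alone, which lies within the spread of the columns by construction. The ratio between columns could not change sign, since its alternative added the same larger constant to both columns. CALR had 0 trivalent positions within 1 kb, 1 within 5 kb and 2 with its start at the end with more H3K4me3. Peaks without heights allow no stricter calling, and 1 sample per assay gives no replicate error.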
